A study of Mus musculus with 9 samples.

Results

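Glutamate and GABA are the main excitatory and inhibitory transmitters of the brain, and their receptors were followed here as RNA in mouse glioblastoma. The genes were taken by symbol, as all protein-coding genes of the Gria, Grin, Grik, Grid, Grm, Gabr and Gabbr families. The rule gave 47 genes of the 46517 gene identifiers in the count tables, 26 for glutamate receptors and 21 for GABA receptors. Of the 47, 43 had enough reads to be tested, and Gabra6, Gabrp, Gabrr1 and Gabrr3 did not, with at most 0.620 CPM (counts scaled to library size and between libraries) in any library.

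AMPA, NMDA and kainate receptors are cation channels, whereas the metabotropic glutamate receptors and the GABA-B receptor act through G proteins. GABA-A receptors are chloride channels built mostly from alpha, beta and gamma subunits. In the adult brain neurons carry most of these receptors, but astrocytes and oligodendrocyte precursor cells carry some of them too, and precursor cells receive synapses from neurons through AMPA and GABA-A receptors. Glioma cells are known to carry AMPA receptors through which neurons can excite them.

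Tumours from 3 mouse models were compared by bulk RNA sequencing of primary glioblastoma tissue, with 3 samples per model. The models are named Synapsin-cre, NG2-creERTM and Nestin-creERT2, all on a mixed strain background, and the series asks how tumours that stand for different cells of origin differ. Synapsin-cre is named for a promoter active in neurons, NG2-creERTM for that of Cspg4, active in oligodendrocyte precursor cells and pericytes, and Nestin-creERT2 for that of nestin, active in neural stem and progenitor cells. The creERTM and creERT2 forms of the recombinase act once tamoxifen is given. The alleles that Cre deleted, the ages and the tamoxifen schedule are not given in the sources used here. Separate animals are not stated as the source of the samples of a model, and the p-values therefore cover only sample-to-sample spread, some of which may be technical.

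Each library held 23557398 to 41099967 counts in genes. Synapsin-cre replicate 1 stood apart from the other 8 libraries, and most results that involve Synapsin-cre are therefore given with and without it. It was singled out after its values were seen, so lower receptor levels without it are partly set by that choice. Markers of mature neurons had a mean log2 CPM of 7.68 in that library, against 4.53 and 3.28 in Synapsin-cre replicates 2 and 3, 2.57 to 4.27 in NG2-creERTM and 6.21 to 6.55 in Nestin-creERT2. Markers of dividing cells had 2.91 in Synapsin-cre replicate 1, against 6.45 to 7.81 in the other 8 libraries. Mki67, a marker of dividing cells, was at 29.3 CPM there and at 347 to 672 CPM in the other 8. The labels call this sample glioblastoma tissue like the rest; how much tumour it holds was not tested, and every Synapsin-cre value that includes it carries that doubt. All 10 mature neuron markers were detected in every library, and of 6 glutamatergic neuron markers Slc17a6 and Neurod6 were at 0 in some library. Summed glutamatergic markers were 1282, 9.35 and 9.11 CPM in Synapsin-cre, 22.9 to 77.6 in NG2-creERTM and 159 to 290 in Nestin-creERT2. Summed markers of GABAergic neurons were 3868, 27.8 and 6.92 CPM in Synapsin-cre, 8.90 to 39.5 in NG2-creERTM and 130 to 225 in Nestin-creERT2. Oligodendrocyte precursor markers were present in every library, with a mean log2 CPM of 6.52 to 8.96 in Synapsin-cre, 8.89 to 10.02 in NG2-creERTM and 6.74 to 10.06 in Nestin-creERT2. Choroid plexus markers were high in Nestin-creERT2 replicate 1 alone (7.69, against at most 0.52 elsewhere).

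Some receptor genes were present in every library and others were near 0 in some libraries and above 50 CPM in others. Per kb of exon, the highest mean levels over the 9 libraries were those of Gabbr1 (33.2 CPM per kb), Grik5 (29.4), Grik3 (26.3), Gria1 (21.3), Gria4 (19.2) and Gria2 (16.9). That order rests on means and was not tested, and the place of Gria1 rests on Synapsin-cre replicate 1 and the Nestin-creERT2 libraries. In all, 9 genes had at least 10 CPM in every library, namely Gria2, Gria3, Gria4, Grin3a, Grik2, Grik3, Grik5, Grid1 and Gabbr1. A level of at least 1 CPM in every library was met by 20 of the 47. At the other end, 19 of the 47 were under 1 CPM in both Synapsin-cre replicates 2 and 3. The summed level of the 47 genes was 6327 CPM in Synapsin-cre replicate 1 and 1163 and 1000 CPM in replicates 2 and 3. It was 1791, 748 and 1104 CPM in the NG2-creERTM libraries and 2042, 2456 and 3303 CPM in the Nestin-creERT2 libraries. All NG2-creERTM sums and those of Synapsin-cre replicates 2 and 3 thus lay below every Nestin-creERT2 sum.

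**Figure D1:**
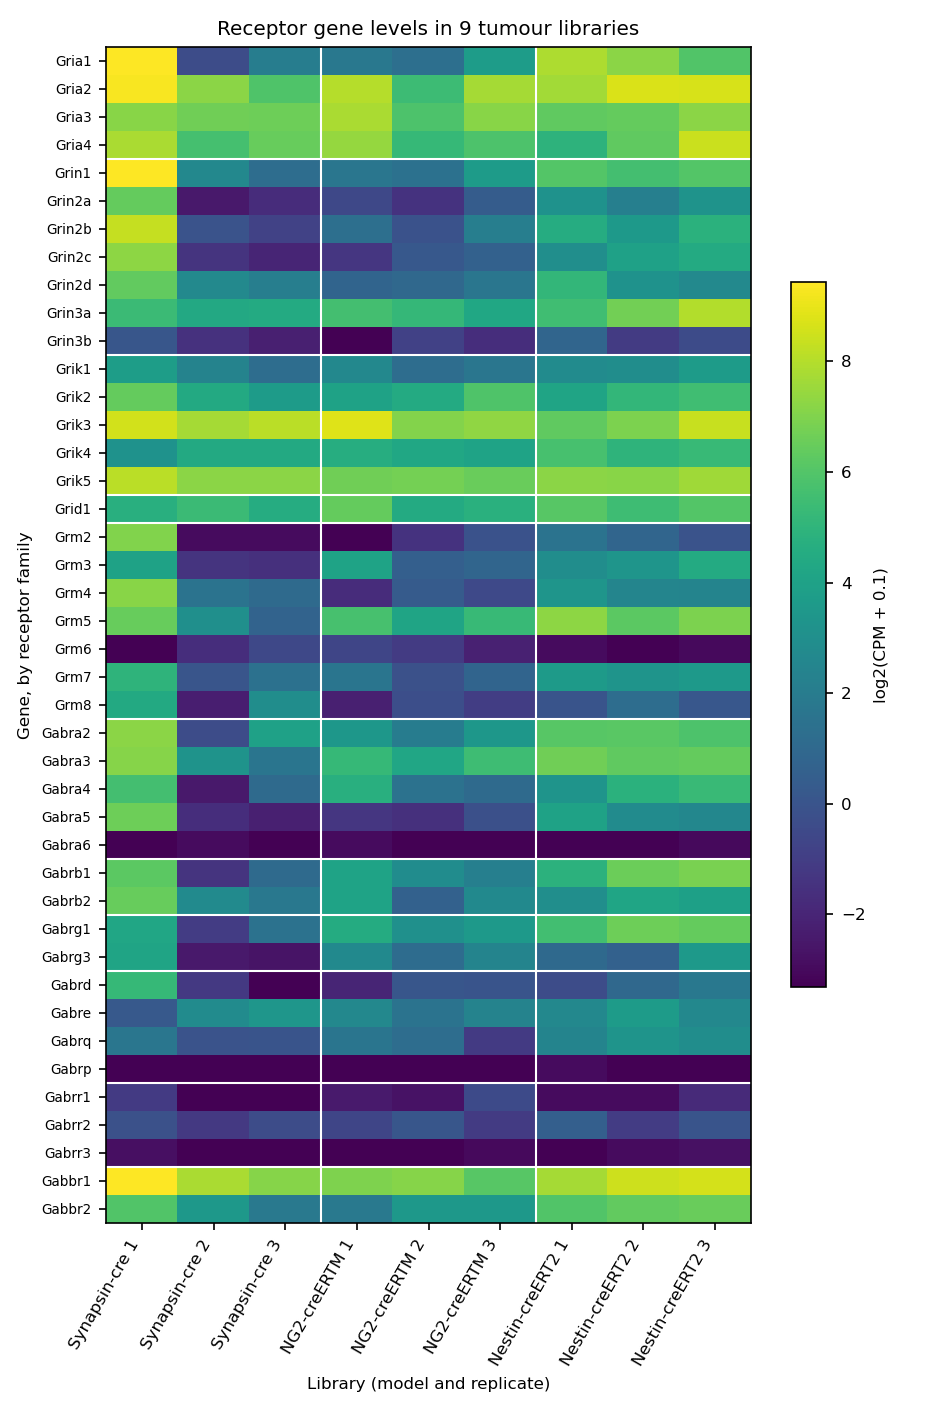
Level of 42 of the 47 receptor genes (rows, grouped by family, white lines between families) in each of the 9 libraries (columns), as log2(CPM + 0.1) on the colour scale. Over all 47 genes, Synapsin-cre replicate 1 has 36 of at least 10 CPM, against 13 and 14 in Synapsin-cre replicates 2 and 3, 15 to 19 in NG2-creERTM and 26 to 30 in Nestin-creERT2.

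The promoters of these genes differed in how CpG-rich they were, and 4 are shown, Gria2 because it carries the site sought and the others because they belong to genes described below with many or few CpG pairs. RefSeq promoters (GRCm38.p6, 250 bases before to 50 after the start) were found for 32 of the 47 genes, 39 promoters in all. The RE1 site, bound by the repressor REST that keeps neuronal genes silent outside neurons, was sought on both strands by its core motif with up to 2 mismatches among the 15 fixed letters. It was found in 1 of the 39 promoters, that of Gria2, with 1 mismatch, and in 0.143% of all 32851 promoters of the same length. The next best receptor promoter had 4 mismatches. The RE1 letters are in capitals in Gria2, where they read on the reverse strand, and CpG pairs are in capitals in the other sequences. Gria2 lies on the minus strand at chr3:80802786-80803085, Grik3 on the plus strand at chr4:125490446-125490745, Gabrg1 on the minus strand at chr5:70842568-70842867 and Gabbr2 on the minus strand at chr4:46991665-46991964.
Gria2: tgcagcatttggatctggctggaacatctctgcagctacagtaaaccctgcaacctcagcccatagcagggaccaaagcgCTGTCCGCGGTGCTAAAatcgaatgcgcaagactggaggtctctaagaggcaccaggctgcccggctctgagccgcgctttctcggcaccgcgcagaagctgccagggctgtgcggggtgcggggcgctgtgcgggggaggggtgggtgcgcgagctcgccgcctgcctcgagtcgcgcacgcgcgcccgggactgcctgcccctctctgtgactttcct
Grik3: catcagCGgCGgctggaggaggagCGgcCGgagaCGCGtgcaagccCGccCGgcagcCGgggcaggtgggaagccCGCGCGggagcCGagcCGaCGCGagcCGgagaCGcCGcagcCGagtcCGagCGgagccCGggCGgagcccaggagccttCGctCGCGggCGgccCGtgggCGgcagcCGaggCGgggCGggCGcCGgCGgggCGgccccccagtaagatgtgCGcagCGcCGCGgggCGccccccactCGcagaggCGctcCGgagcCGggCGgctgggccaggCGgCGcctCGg
Gabrg1: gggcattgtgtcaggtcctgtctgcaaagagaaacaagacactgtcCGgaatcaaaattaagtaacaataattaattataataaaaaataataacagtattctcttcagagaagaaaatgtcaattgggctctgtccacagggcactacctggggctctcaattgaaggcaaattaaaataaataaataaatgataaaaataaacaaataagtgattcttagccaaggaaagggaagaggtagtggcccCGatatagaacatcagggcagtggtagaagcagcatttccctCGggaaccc
Gabbr2: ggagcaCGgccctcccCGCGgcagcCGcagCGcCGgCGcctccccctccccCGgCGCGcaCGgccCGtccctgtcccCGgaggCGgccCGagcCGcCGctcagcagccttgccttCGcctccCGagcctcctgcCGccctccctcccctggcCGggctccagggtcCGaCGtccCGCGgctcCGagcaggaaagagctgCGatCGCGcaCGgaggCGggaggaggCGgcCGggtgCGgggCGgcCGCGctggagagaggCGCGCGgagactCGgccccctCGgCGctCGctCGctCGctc
Grik3 and Gabbr2 held 50 and 46 CpG pairs, whereas Gabrg1 held 3. Member promoters had a median of 12 CpG pairs and 59.7% GC, against 7 and 52.7% in all promoters of the table. Counts per gene took only the promoter of each gene with most CpG pairs, unlike the medians just given, which cover every promoter. Of the genes with at least 10 CPM in every library, 6 had a promoter here, with 10 to 50 CpG pairs and a median of 22. The other 22 tested genes with a promoter had 0 to 46 and a median of 14. The ranges overlap.

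The NG2-creERTM tumours had lower levels of most receptor genes than the Nestin-creERT2 tumours. Of the 43 genes tested, 40 had a negative log2 fold change, with a median of -1.71 against 0.02 over all genes. In 26 of the 43 (60.5%) all NG2-creERTM libraries were below all Nestin-creERT2 libraries, a pattern seen in 14.2% of all genes tested. Those 26 held 5 of 7 NMDA subunits, 6 of 8 metabotropic glutamate receptors, 4 of 5 tested alpha subunits and both GABA-B subunits. Grm6, which serves retinal bipolar cells, was the single gene above in every NG2-creERTM library (11% of all genes were), at 0.124 to 0.539 CPM against 0 to 0.0294 CPM in Nestin-creERT2. In edgeR's quasi-likelihood test of all 9 libraries with Benjamini-Hochberg adjustment, 0 of the 43 genes and 0 of all genes passed (0% called; lowest adjusted p among the 43, 0.318, for Gabbr2). At an unadjusted p under 0.05, 13 of the 43 stood, 12 of them lower (5.73% of all genes) and Grm6 higher (5.53%), and in both directions 11.3% of all genes did. With the 6 libraries of these models alone, edgeR passed 5 of 42 genes, all lower, against 1.39% of all genes, or 1.07% counting only lower ones. They were Gabbr2, Gabra2, Gabra5, Gria1 and Grin2c. Without Synapsin-cre replicate 1 in the fit, 3 of 43 passed, all lower (Gabbr2, Gabra5 and Grin2c), against 0.671% of all genes, or 0.498% counting only lower ones. All 10 mature neuron markers were also lower in every NG2-creERTM library than in any Nestin-creERT2 library, with summed levels of 460 to 517 CPM in NG2-creERTM and 1277 to 1580 CPM in Nestin-creERT2. So were 4 of 9 astrocyte markers, which summed to 1293 to 3629 CPM in NG2-creERTM and 4610 to 6707 CPM in Nestin-creERT2, and the part of either in the receptor levels was not tested. In bulk tissue, fewer cells of a type and less RNA per cell cannot be told apart.

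The Synapsin-cre libraries were split against the Nestin-creERT2 libraries. Synapsin-cre replicate 1 was the highest of all 9 libraries in 26 of the 43 tested genes (25% of all genes), whereas replicates 2 and 3 both lay below every Nestin-creERT2 library in 31 of the 43 (21% of all genes). With all 9 libraries 0 of 43 genes passed in edgeR's adjusted test (0% of all genes called), 5 had an unadjusted p under 0.05 (10.8% of all genes), 4 of them lower (4.05% of all genes), and the median log2 fold change was 0.14, against 0.13 over all genes. In 6 genes all 3 Synapsin-cre libraries lay below all 3 Nestin-creERT2 libraries (6.26% of all genes), namely Grin3a, Grik4, Grid1, Gabrg1, Gabrq and Gabbr2, and in 0 they all lay above (8.46%). Without Synapsin-cre replicate 1, 26 of 43 had an unadjusted edgeR p under 0.05 (21.5% of all genes), 25 of them lower (12.2%). The median was then -2.67 (0.01 over all genes) and 39 of 43 were negative (49.5% of all genes). Values without replicate 1 rest on Synapsin-cre replicates 2 and 3 alone, kept after replicate 1 was seen to be high in neuron markers and receptor genes. In edgeR's adjusted test 12 fell, against 1.48% of all genes called, or 1.07% counting only lower ones. Among them were Gria1, Grin2a, Grin2b, Grin2c, Grm5, Gabra3, Gabra5, Gabrb1, Gabrg1 and Gabbr2. In the 2 models only, 0 of 42 passed with replicate 1 (0.0291% of all genes, 0.00582% lower) and 16 fell without it (2.42% of all genes, 1.71% lower). The 16 included Grin1, Grm2, Grm3 and Gabrq (edgeR adjusted p = 0.0281, 0.0407, 0.0261 and 0.0480). These did not pass in the fit of all models without replicate 1. DESeq2 with all 9 libraries passed 2 (2.77% of all genes). With limma voom, which kept all 9 libraries, the median was -1.69 and 36 of 43 were negative, so that the sign of the median with replicate 1 depended on the tool. Summed mature neuron markers were 5083 CPM in Synapsin-cre replicate 1 and 769 and 414 CPM in replicates 2 and 3, against 1277 to 1580 CPM in Nestin-creERT2. Summed astrocyte markers were 8106, 2495 and 356 CPM in the Synapsin-cre libraries, against 4610 to 6707 CPM in Nestin-creERT2, and the part of either in the receptor levels was not tested.

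Sex and model cannot be told apart between Synapsin-cre and Nestin-creERT2. The female-specific Xist RNA was at 1.02 to 1.28 CPM in Synapsin-cre against 778 to 1810 CPM in Nestin-creERT2, and Y-linked Ddx3y stood at 59.2 to 66.9 CPM in Synapsin-cre and at most 0.0715 CPM in Nestin-creERT2. In NG2-creERTM, Xist was at 0.989, 1320 and 1.27 CPM and Ddx3y at 5.54, 0.0523 and 71.7 CPM, so that 1 library of the 3 had Xist at the Nestin-creERT2 level. The part of sex in the NG2-creERTM comparisons was not tested. These values bear on the X-linked members Gria3, Gabra3, Gabre and Gabrq.

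The Synapsin-cre libraries differed from the NG2-creERTM libraries in different directions with and without replicate 1. All 3 Synapsin-cre libraries lay above all 3 NG2-creERTM libraries in 4 of 43 genes, Grin2d, Grik5, Grm4 and, by a very narrow margin, Gabbr1. That is 9.3%, near the 8.04% of all genes. They lay below in 0 (5.76%). In edgeR's adjusted test of all 9 libraries 0 of 43 genes passed (0% of all genes called). At an unadjusted edgeR p under 0.05 stood 15, all higher (8.81% of all genes, and 12.8% in both directions). The median log2 fold change was 0.96, against 0.08 over all genes. Without Synapsin-cre replicate 1 the median was -0.69, 33 of 43 were negative, and again 0 passed (0.00541% of all genes), as with these models alone without that library (0.00566%). The 4 genes were also the members in which every NG2-creERTM library lay below the other 6 libraries, a pattern seen in 2.82% of all genes. The converse for Nestin-creERT2, every library above the other 6, held for Grik4, Gabrg1, Gabrq and Gabbr2 (2.41% of all genes).

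**Figure D2:**
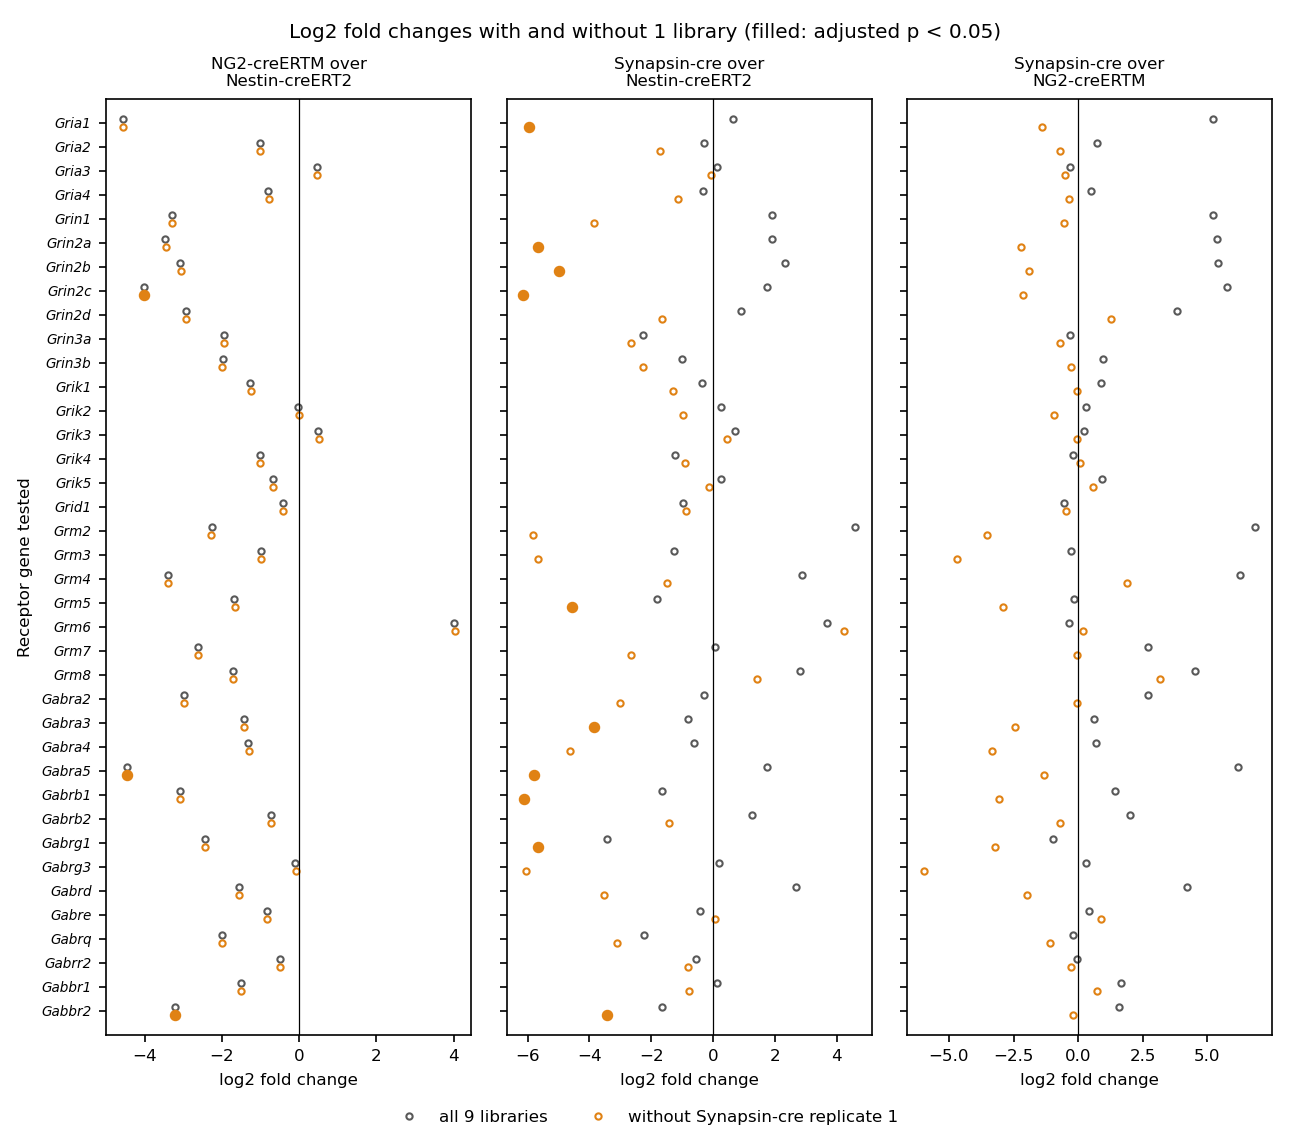
Fitted log2 fold change (horizontal axis) of 38 of the 43 tested receptor genes (vertical axis) in the 3 comparisons, with all 9 libraries (grey) and without Synapsin-cre replicate 1 (orange); filled points have an edgeR adjusted p under 0.05. Synapsin-cre over Nestin-creERT2 has a median over the 43 genes of 0.14 with that library and -2.67 without it. NG2-creERTM over Nestin-creERT2 has medians of -1.71 and -1.72. That library belongs to neither of these models, so the second comparison could hardly move.

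Among AMPA receptor subunits, which carry fast excitation, Gria1 had the lowest levels in NG2-creERTM and in Synapsin-cre replicates 2 and 3. Gria1 (chromosome 11, 57011387 to 57330244) encodes the subunit GluA1. Its levels were 691, 0.690 and 4.12 CPM in Synapsin-cre, 3.30, 2.41 and 13.1 in NG2-creERTM and 231, 150 and 63.0 in Nestin-creERT2. NG2-creERTM and Synapsin-cre replicates 2 and 3 were therefore all below Nestin-creERT2, while Synapsin-cre replicate 1 was above it. The log2 fold change of NG2-creERTM over Nestin-creERT2 was -4.56 ± 2.01 (SE, edgeR adjusted p = 0.437 with all 9 libraries), and -4.56 ± 0.80 with these models alone (edgeR adjusted p = 0.0447). The fit of all models without Synapsin-cre replicate 1 gave -4.57 ± 0.91 (edgeR adjusted p = 0.0561). Synapsin-cre over Nestin-creERT2 was 0.65 ± 1.73 with all 9 libraries (edgeR adjusted p = 0.924) and -5.97 ± 1.18 without Synapsin-cre replicate 1 (edgeR adjusted p = 0.0482). Gria2 (chromosome 3, 80681450 to 80802835) encodes the subunit that makes AMPA receptors impermeable to calcium once its RNA is edited, and carried the RE1 match above. It stood at 629, 149 and 59.9 CPM in Synapsin-cre, 257, 43.2 and 209 in NG2-creERTM and 202, 414 and 409 in Nestin-creERT2, with overlap between the models. Gria3, on the X chromosome, was at 144, 101 and 98.0 CPM in Synapsin-cre, 226, 58.5 and 143 in NG2-creERTM and 78.7, 84.8 and 150 in Nestin-creERT2. Its log2 fold change of NG2-creERTM over Nestin-creERT2 was 0.45 ± 0.48 (edgeR adjusted p = 0.774), among the 3 positive ones. Gria4 ranged from 51.6 to 229 CPM in Synapsin-cre, 36.8 to 169 in NG2-creERTM and 30.4 to 346 in Nestin-creERT2. Per kb of exon, Gria1 made up 55.6, 0.41 and 2.40% of AMPA subunit RNA in the Synapsin-cre libraries, 0.82, 2.66 and 5.51% in NG2-creERTM and 59.7, 34.1 and 9.76% in Nestin-creERT2. Its share was thus under 6% in every NG2-creERTM library and in Synapsin-cre replicates 2 and 3.

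NMDA receptors need glutamate, a co-agonist and depolarisation to open, and as a family they had the most negative median log2 fold change of the glutamate receptor families in NG2-creERTM over Nestin-creERT2 (-3.07). Grin1 (chromosome 2, 25291181 to 25319187), the subunit that every NMDA receptor needs, was at 669, 6.12 and 2.23 CPM in Synapsin-cre, 3.12, 2.62 and 12.6 in NG2-creERTM and 65.0, 49.7 and 64.6 in Nestin-creERT2. Grin2c, a subunit typical of cerebellar granule cells and some astrocytes, was at 154, 0.276 and 0.150 CPM in Synapsin-cre, 0.300, 1.05 and 1.46 in NG2-creERTM and 7.85, 15.8 and 22.3 in Nestin-creERT2. Both genes were lower in each NG2-creERTM library, and in Synapsin-cre replicates 2 and 3, than in any Nestin-creERT2 library. The log2 fold change of Grin2c in NG2-creERTM over Nestin-creERT2 was -4.02 ± 2.02 (SE, edgeR adjusted p = 0.494), and it fell by 4.03 without Synapsin-cre replicate 1 in the fit (SE 0.70, edgeR adjusted p = 0.0471). Against Nestin-creERT2, Synapsin-cre gave 1.75 ± 1.83 with replicate 1 (edgeR adjusted p = 0.774) and -6.14 ± 0.95 without it (edgeR adjusted p = 0.0301). Grin2a and Grin2b, the main partners of Grin1 in the forebrain, showed the same order. Grin2a was at 84.7, 0.0828 and 0.210 CPM in Synapsin-cre, 0.569, 0.262 and 1.22 in NG2-creERTM and 8.81, 4.52 and 9.34 in Nestin-creERT2. Grin2b was at 318, 0.855 and 0.481 CPM in Synapsin-cre, 2.40, 0.837 and 4.29 in NG2-creERTM and 23.9, 11.7 and 27.8 in Nestin-creERT2. Without Synapsin-cre replicate 1 both fell in Synapsin-cre against Nestin-creERT2, with log2 fold changes of -5.67 ± 0.96 for Grin2a (edgeR adjusted p = 0.0374) and -4.98 ± 0.86 for Grin2b (edgeR adjusted p = 0.0385). With it their log2 fold changes were 1.90 ± 1.80 (edgeR adjusted p = 0.742) and 2.33 ± 1.80 (edgeR adjusted p = 0.679).

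Other NMDA subunits behaved differently. Grin2d, a subunit of early development and of interneurons, was at 83.5, 6.40 and 4.33 CPM in Synapsin-cre, 1.62, 1.91 and 3.08 in NG2-creERTM and 35.1, 9.005 and 6.27 in Nestin-creERT2, so that every NG2-creERTM library lay below the other 6. Its log2 fold change was 3.83 ± 1.20 in Synapsin-cre over NG2-creERTM (edgeR adjusted p = 0.357) and 1.28 ± 0.72 without Synapsin-cre replicate 1 (edgeR adjusted p = 0.519). Grin3a (chromosome 4, 49661611 to 49845744), which lowers calcium entry through NMDA receptors and is present in oligodendrocyte precursor cells, was at 40.7, 20.5 and 22.5 CPM in Synapsin-cre, 48.4, 35.7 and 19.5 in NG2-creERTM and 45.5, 106 and 251 in Nestin-creERT2. It kept 19.5 CPM or more everywhere, and all Synapsin-cre libraries were below Nestin-creERT2 (log2 fold change -2.27 ± 0.62, edgeR adjusted p = 0.322, and -2.64 ± 0.70 without replicate 1, adjusted p = 0.0818). Per kb of exon, Grin3a made up 2.49, 48.7 and 65.2% of NMDA subunit RNA in the Synapsin-cre libraries, 84.0, 75.4 and 40.2% in NG2-creERTM and 19.3, 45.3 and 59.5% in Nestin-creERT2. Grin1 made up 51.8, 18.4 and 8.16%, 6.84, 6.99 and 32.9%, and 34.9, 26.8 and 19.4% in the same libraries. Grin3b stayed at or under 1.67 CPM.

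Of the kainate receptor subunits, which modulate transmitter release and excitability, Grik3 and Grik5 were high in every library. Grik3 (chromosome 4, 125490700 to 125714173), a low-affinity kainate subunit, was at 373, 211 and 273 CPM in Synapsin-cre, 447, 135 and 160 in NG2-creERTM and 80.9, 121 and 326 in Nestin-creERT2. Its log2 fold change was 0.49 ± 0.61 in NG2-creERTM over Nestin-creERT2 (edgeR adjusted p = 0.809). Grik5 (chromosome 7, 25009849 to 25072346), a high-affinity subunit that works only with other subunits, was at 278, 149 and 150 CPM in Synapsin-cre, 101, 109 and 92.1 in NG2-creERTM and 151, 142 and 194 in Nestin-creERT2. It had the smallest ratio of highest to lowest library among the members (3.01), and every NG2-creERTM library lay below the other 6. Its log2 fold change was -0.69 ± 0.32 in NG2-creERTM over Nestin-creERT2 (edgeR adjusted p = 0.459) and 0.93 ± 0.32 in Synapsin-cre over NG2-creERTM (edgeR adjusted p = 0.357). Without Synapsin-cre replicate 1 that value was 0.57 ± 0.25 (edgeR adjusted p = 0.415). Grik4, the other high-affinity subunit, was at 9.07, 21.5 and 21.6 CPM in Synapsin-cre, 24.3, 19.6 and 16.9 in NG2-creERTM and 52.1, 31.1 and 38.7 in Nestin-creERT2, where all 3 libraries exceeded the other 6. For Synapsin-cre over Nestin-creERT2 the log2 fold change was -1.22 ± 0.41 (edgeR adjusted p = 0.369) and -0.92 ± 0.34 without replicate 1 (edgeR adjusted p = 0.166). Synapsin-cre replicate 1, the highest library in 26 genes, was the lowest of the 9 in Grik4, as it was in Gabre. Grik1 ranged from 2.25 to 13.9 CPM and Grik2 from 12.5 to 85.6 CPM over the 9 libraries. The delta subunits bind synaptic organisers rather than passing glutamate-gated current. Grid1 was at 26.8, 41.5 and 24.1 CPM in Synapsin-cre, 85.3, 22.2 and 26.9 in NG2-creERTM and 70.2, 44.3 and 65.3 in Nestin-creERT2.

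Set against each other per kb of exon, the ionotropic families changed rank between libraries. NMDA subunits made up 29.7, 3.47 and 2.81% of ionotropic glutamate receptor RNA in the Synapsin-cre libraries, 2.88, 5.97 and 4.28% in NG2-creERTM and 13.2, 12.7 and 14.3% in Nestin-creERT2. Every NG2-creERTM library and Synapsin-cre replicates 2 and 3 were thus under 6%, and every Nestin-creERT2 library above 12%. Kainate subunits were the larger share in Synapsin-cre replicates 2 and 3 (59.0 and 64.2%) and in NG2-creERTM (46.3, 64.2 and 47.0%), and made up 33.9, 33.1 and 35.7% in Nestin-creERT2 and 23.5% in Synapsin-cre replicate 1. AMPA subunits made up 45.8, 28.4 and 28.4% in Synapsin-cre, 40.9, 23.1 and 42.5% in NG2-creERTM and 43.9, 48.3 and 44.5% in Nestin-creERT2.

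**Figure D3:**
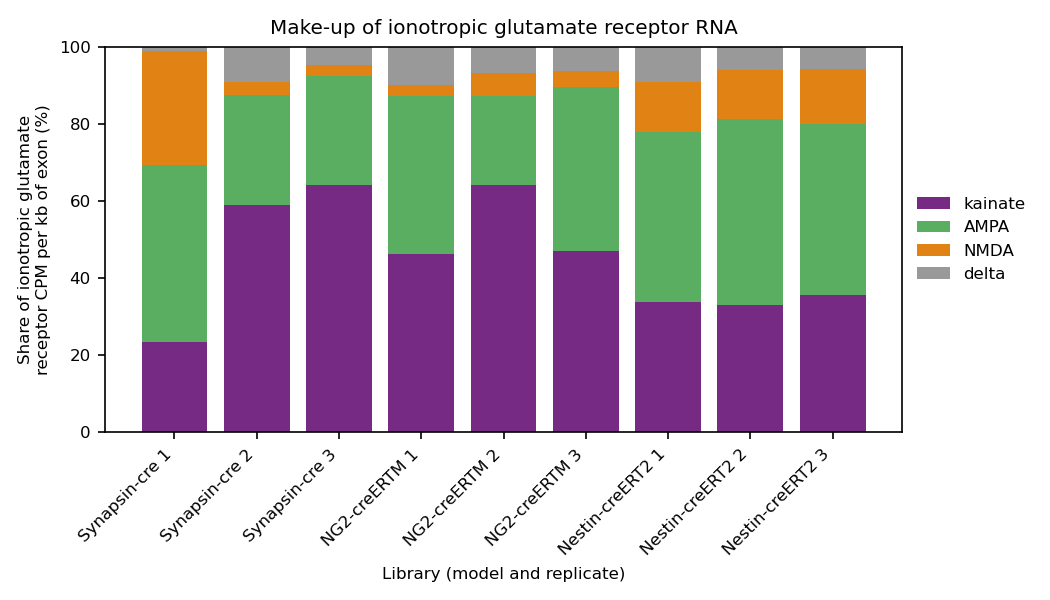
Share of ionotropic glutamate receptor CPM per kb of exon (vertical axis, %) held by kainate, AMPA, NMDA and delta subunits in each of the 9 libraries (horizontal axis, stacked bars). The NMDA share is 12.7 to 14.3% in Nestin-creERT2, 2.88 to 5.97% in NG2-creERTM, and 29.7% in Synapsin-cre replicate 1 against 3.47 and 2.81% in replicates 2 and 3.

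Among metabotropic glutamate receptors, Grm5 had the highest mean level per kb of exon. It encodes mGlu5, which raises internal calcium and is found on neurons and young astrocytes. Grm5 (chromosome 7, 87584168 to 88134907) was at 89.0, 8.17 and 1.56 CPM in Synapsin-cre, 52.5, 17.4 and 39.0 in NG2-creERTM and 153, 73.5 and 121 in Nestin-creERT2. All NG2-creERTM libraries lay below Nestin-creERT2, and Synapsin-cre replicates 2 and 3 lay below both. For Synapsin-cre over Nestin-creERT2 the log2 fold change was -1.82 ± 1.12 (edgeR adjusted p = 0.595) and -4.57 ± 0.84 without replicate 1 (edgeR adjusted p = 0.0422). Grm3, an astrocyte and neuron receptor that lowers cyclic AMP, was at 16.3, 0.276 and 0.241 CPM in Synapsin-cre, 17.1, 1.33 and 1.66 in NG2-creERTM and 7.55, 10.03 and 22.2 in Nestin-creERT2. Grm4, a presynaptic receptor abundant in cerebellum, was at 146, 2.84 and 2.01 CPM in Synapsin-cre, 0.210, 1.15 and 0.596 in NG2-creERTM and 9.81, 5.40 and 5.36 in Nestin-creERT2. Every NG2-creERTM library had less Grm4 than the other 6, with log2 fold changes of -3.38 ± 1.48 over Nestin-creERT2 (edgeR adjusted p = 0.437) and, for Synapsin-cre over NG2-creERTM, 6.25 ± 1.68 with replicate 1 and 1.90 ± 0.69 without it (edgeR adjusted p = 0.357 and 0.356). Cerebellar markers had summed levels of 73.9, 32.3 and 25.4 CPM in Synapsin-cre, 29.8, 22.4 and 13.8 in NG2-creERTM and 14.6, 17.9 and 39.2 in Nestin-creERT2, with Pcp2 and Ppp1r17 at 0 in some library, and their part in the Grm4 levels was not tested. Grm2, a neuronal receptor, was at 130, 0.0276 and 0.0301 CPM in Synapsin-cre, 0, 0.262 and 0.844 in NG2-creERTM and 2.85, 1.69 and 0.858 in Nestin-creERT2. Outside Synapsin-cre replicate 1 it did not pass 2.85 CPM. Grm7 ranged from 0.785 to 31.5 CPM and Grm8 from 0.110 to 21.6 CPM, both highest in Synapsin-cre replicate 1.

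**Figure D4:**
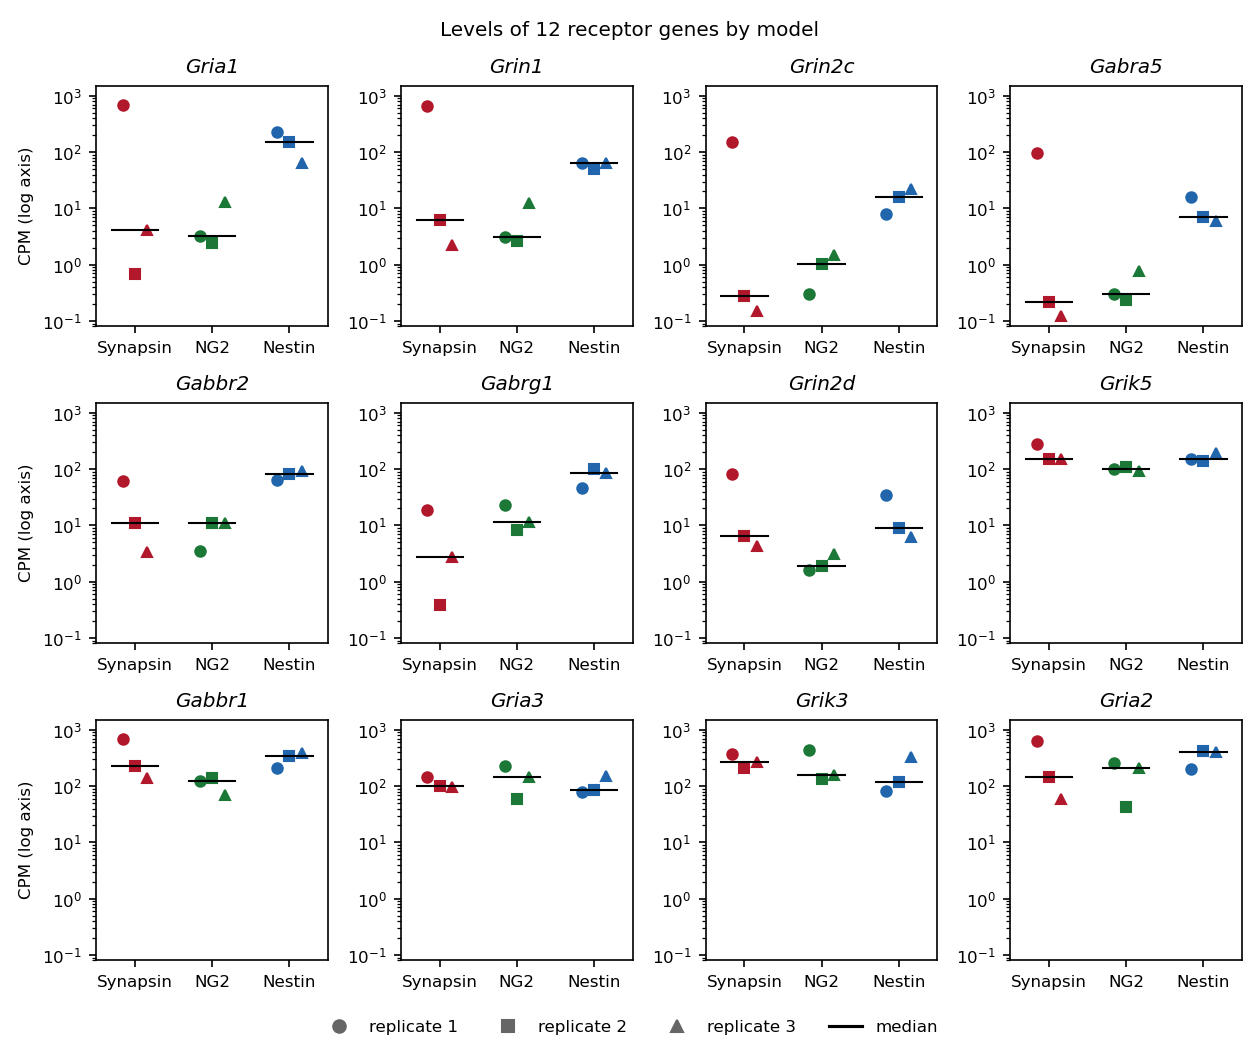
CPM of 12 receptor genes on a log axis (vertical) in the 3 models (horizontal), 1 point per library with the symbol giving the replicate and the bar the median. Gria1, Grin1, Grin2c, Gabra5 and Gabbr2 lie lower in every NG2-creERTM library than in any Nestin-creERT2 library, Grin2d, Grik5 and Gabbr1 are lowest in NG2-creERTM, and Gria2, Gria3 and Grik3 overlap.

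GABA-A receptor subunits were also lower in NG2-creERTM than in Nestin-creERT2 without overlap for 4 of 5 tested alpha genes. Of the alpha subunits, which set the response to benzodiazepines and the place of the receptor, Gabra3 was the highest per kb of exon. It was at 140, 9.35 and 3.01 CPM in Synapsin-cre, 36.7, 18.9 and 44.0 in NG2-creERTM and 101, 80.3 and 85.4 in Nestin-creERT2. The NG2-creERTM libraries lay between Synapsin-cre replicates 2 and 3 below and Nestin-creERT2 above. For Synapsin-cre over Nestin-creERT2 the log2 fold change was -0.81 ± 1.08 (edgeR adjusted p = 0.828) and -3.85 ± 0.60 without replicate 1 (edgeR adjusted p = 0.0326). Gabra5, an alpha subunit typical of extrasynaptic receptors of the hippocampus, was at 96.6, 0.221 and 0.120 CPM in Synapsin-cre, 0.300, 0.235 and 0.769 in NG2-creERTM and 16.1, 7.09 and 5.86 in Nestin-creERT2. In NG2-creERTM against Nestin-creERT2 it had a log2 fold change of -4.46 ± 2.03 with all 9 libraries (edgeR adjusted p = 0.453) and fell by 4.46 with these models alone (SE 0.72, edgeR adjusted p = 0.0436). In Synapsin-cre over Nestin-creERT2 it was 1.74 ± 1.78 (edgeR adjusted p = 0.768) and -5.80 ± 0.93 without replicate 1 (edgeR adjusted p = 0.0326). Gabra2, common in forebrain, was at 148, 0.690 and 15.8 CPM in Synapsin-cre, 10.6, 3.95 and 10.6 in NG2-creERTM and 68.5, 71.7 and 58.8 in Nestin-creERT2. The NG2-creERTM libraries were all below Nestin-creERT2, with a log2 fold change of -2.98 ± 1.32 in all 9 libraries (edgeR adjusted p = 0.439) and a fall of 2.98 in these models alone (SE 0.42, edgeR adjusted p = 0.0388). The fit of all models without Synapsin-cre replicate 1 gave -2.98 ± 0.89 (edgeR adjusted p = 0.116). Gabra4 ranged from 0.0828 to 48.6 CPM over the 9 libraries.

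The beta subunits bind GABA together with alpha. Gabrb1 was at 75.0, 0.276 and 2.04 CPM in Synapsin-cre, 16.8, 7.27 and 4.42 in NG2-creERTM and 28.8, 96.0 and 116 in Nestin-creERT2, so that NG2-creERTM lay below Nestin-creERT2 throughout. Leaving out Synapsin-cre replicate 1, it fell by 6.13 in Synapsin-cre against Nestin-creERT2 (SE 1.13, edgeR adjusted p = 0.0430), and with it the value was -1.64 ± 1.47 (edgeR adjusted p = 0.725). Gabrb2 ranged from 1.46 to 88.4 CPM. Gamma subunits complete most GABA-A receptors. Gabrg1 (chromosome 5, 70751047 to 70842617), whose CpG-poor promoter is printed above, was at 18.7, 0.386 and 2.71 CPM in Synapsin-cre, 23.2, 8.24 and 11.7 in NG2-creERTM and 47.1, 99.2 and 85.9 in Nestin-creERT2. All 3 Nestin-creERT2 libraries were above the other 6, replicate 1 of Synapsin-cre included. Its log2 fold change in Synapsin-cre over Nestin-creERT2 was -3.42 ± 1.12 (edgeR adjusted p = 0.365) and -5.66 ± 0.93 without that replicate (edgeR adjusted p = 0.0342).

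Less common GABA-A subunits included Gabrq, Gabrd and Gabre. Gabrq, on the X chromosome, was at 3.10, 0.855 and 0.902 CPM in Synapsin-cre, 3.06, 2.22 and 0.347 in NG2-creERTM and 5.38, 9.70 and 7.48 in Nestin-creERT2, again with Nestin-creERT2 above the other 6. Its log2 fold change in Synapsin-cre over Nestin-creERT2 was -2.22 ± 0.85 (edgeR adjusted p = 0.419) and -3.10 ± 0.89 without Synapsin-cre replicate 1 (edgeR adjusted p = 0.0999). With these models alone and without that replicate it was -3.10 ± 0.58 (edgeR adjusted p = 0.0480). Gabrd, a subunit of extrasynaptic receptors, was at 37.6, 0.331 and 0 CPM in Synapsin-cre, 0.150, 0.968 and 0.893 in NG2-creERTM and 0.676, 1.91 and 3.34 in Nestin-creERT2. Gabre ranged from 1.06 to 12.6 CPM. Gabrr2, a rho subunit best known from retina, stayed between 0.331 and 1.35 CPM, and Gabrg3 between 0.0601 and 17.3 CPM.

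GABA-A genes lie in clusters, and 2 of these clusters are described here. The cluster of Gabrg1, Gabra2, Gabra4 and Gabrb1 on chromosome 5, which spanned 1398 kb, summed to 290, 1.43 and 22.6 CPM in Synapsin-cre, 77.0, 22.2 and 28.8 in NG2-creERTM and 154, 295 and 301 in Nestin-creERT2. That of Gabre, Gabra3 and Gabrq on the X chromosome, which spanned 587 kb, summed to 144, 17.2 and 14.3 CPM in Synapsin-cre, 45.9, 23.9 and 49.4 in NG2-creERTM and 112, 103 and 98.96 in Nestin-creERT2. In both clusters all NG2-creERTM sums and those of Synapsin-cre replicates 2 and 3 were below every Nestin-creERT2 sum. The genes of a cluster were not uniform: Gabre was at 1.06 to 10.4 CPM in Synapsin-cre, 2.80 to 6.17 in NG2-creERTM and 6.07 to 12.6 in Nestin-creERT2, with overlap between the models. The counts used were those of the strand that held most reads, with 3.25 to 3.64% of the reads in genes on the other strand.

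**Figure D5:**
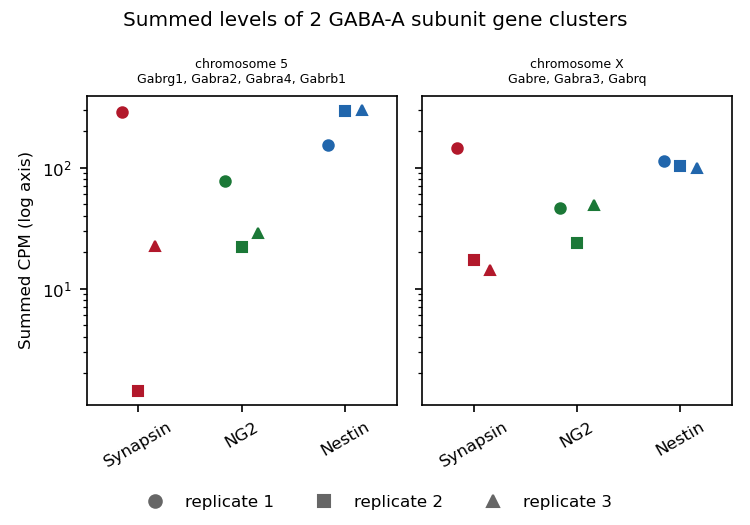
Summed CPM on a log axis (vertical) of the genes of 2 GABA-A clusters (panels) in the 3 models (horizontal), 1 point per library with the symbol giving the replicate. In both panels the NG2-creERTM points and Synapsin-cre replicates 2 and 3 lie below the Nestin-creERT2 points, and Synapsin-cre replicate 1 lies higher than replicates 2 and 3.

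The GABA-B receptor works as a pair of Gabbr1, which binds GABA, and Gabbr2, which couples to the G protein. Gabbr1 (chromosome 17, 37045966 to 37075067) was at 676, 226 and 141 CPM in Synapsin-cre, 123, 141 and 70.0 in NG2-creERTM and 207, 347 and 391 in Nestin-creERT2. Gabbr2 (chromosome 4, 46662305 to 46991873) was at 62.1, 11.2 and 3.43 CPM in Synapsin-cre, 3.45, 11.1 and 11.1 in NG2-creERTM and 63.1, 83.2 and 91.8 in Nestin-creERT2. For Gabbr1 the NG2-creERTM libraries were below the other 6, but NG2-creERTM replicate 2 (140.99 CPM) and Synapsin-cre replicate 3 (141.03 CPM) were nearly equal. For Gabbr2 the Nestin-creERT2 libraries were above the other 6, though Synapsin-cre replicate 1 came close to the lowest of them. Gabbr1 had a log2 fold change of -1.50 ± 0.58 in NG2-creERTM over Nestin-creERT2 (edgeR adjusted p = 0.406). In Synapsin-cre over NG2-creERTM Gabbr1 had 1.64 ± 0.58 (edgeR adjusted p = 0.357), and 0.72 ± 0.40 without Synapsin-cre replicate 1 (edgeR adjusted p = 0.514). Gabbr2 had -3.22 ± 0.95 in NG2-creERTM over Nestin-creERT2 (edgeR adjusted p = 0.318), and fell by 3.22 with these models alone (SE 0.47, edgeR adjusted p = 0.0397). In Synapsin-cre over Nestin-creERT2 Gabbr2 had -1.64 ± 0.89 (edgeR adjusted p = 0.543), and fell by 3.44 without Synapsin-cre replicate 1 (SE 0.68, edgeR adjusted p = 0.0485). Per kb of exon, Gabbr2 made up 9.64, 5.44 and 2.75% of GABA-B RNA in the Synapsin-cre libraries, 3.15, 8.37 and 15.5% in NG2-creERTM and 26.1, 21.8 and 21.4% in Nestin-creERT2. Its share was highest in the 3 Nestin-creERT2 libraries.

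Genes that work with these receptors were read from lists whose members, like the receptors, gave 0 calls in edgeR's adjusted test of all 9 libraries. In NG2-creERTM over Nestin-creERT2, 12 of 13 auxiliary subunits of AMPA and kainate receptors had negative fold changes (median -1.40 on the log2 scale, against 0.02 over all genes), as had 12 of 14 scaffold genes (median -0.95), 6 of 7 genes of transmitter synthesis and vesicle loading (median -2.87) and 7 of 10 of uptake and breakdown (median -1.01). Scaffolds and partners of GABA receptors did not lean either way, with 5 of 9 negative and a median of -0.01. With these models alone 4 of the 55 genes of the lists fell in edgeR's adjusted test, against 1.39% of all genes called, or 1.07% counting only lower ones. Cnih2, an AMPA receptor auxiliary protein, was at 4.29, 2.82 and 5.93 CPM in NG2-creERTM and 37.4, 15.8 and 30.5 CPM in Nestin-creERT2 (log2 fold change -2.68, edgeR adjusted p = 0.0445). Shank1, a postsynaptic scaffold, was at 12.7, 8.50 and 14.4 CPM in NG2-creERTM and 66.5, 38.6 and 65.0 CPM in Nestin-creERT2 (-2.26, edgeR adjusted p = 0.0397). Gad1, which makes GABA, was at 7.43, 11.4 and 16.4 CPM in NG2-creERTM and 116, 54.5 and 87.5 CPM in Nestin-creERT2 (-2.87, edgeR adjusted p = 0.0388). The fourth was Slc1a2, the main astrocytic glutamate transporter (-3.13, edgeR adjusted p = 0.0354). With all 9 libraries the edgeR adjusted p of these 4 genes were between 0.430 and 0.566. Gad1 is also on the list of GABAergic neuron markers and Slc1a2 on that of astrocyte markers, so their calls are not separate from those markers. The auxiliary subunits also held genes that stayed high throughout, such as Cacng7, named after its values were seen, at 176 to 289 CPM in Synapsin-cre, 174 to 254 in NG2-creERTM and 194 to 330 in Nestin-creERT2.

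In Synapsin-cre over Nestin-creERT2 the medians of the same lists were lower without replicate 1 than with it, to different degrees. Over all genes the median was 0.13 with it and 0.01 without it. Auxiliary subunits had a median of 0.02 with it (6 of 13 negative) and -1.55 without it (12 of 13 negative), and transmitter synthesis and loading had 0.53 (1 of 7 negative) and -2.95 (7 of 7 negative). Uptake and breakdown had 0.15 (4 of 10 negative) and -2.03 (10 of 10 negative). Glutamate receptor scaffolds had 0.64 (3 of 14 negative) and -0.55 (12 of 14 negative). GABA receptor scaffolds and partners moved least, with 0.42 (2 of 9 negative) and -0.06 (6 of 9 negative). Without replicate 1, 3 of the 55 list genes fell in edgeR's adjusted test, against 1.48% of all genes called, or 1.07% counting only lower ones. They were Slc32a1, which loads GABA into vesicles, Abat, which breaks GABA down, and Slc6a11, an astrocytic GABA transporter. Of these, Slc32a1 is also on the list of GABAergic neuron markers. Slc32a1 was at 268, 0.497 and 0.0601 CPM in Synapsin-cre and 26.4, 14.5 and 22.0 CPM in Nestin-creERT2 (edgeR adjusted p = 0.0469 without replicate 1). Slc6a11 was at 734, 5.68 and 5.59 CPM in Synapsin-cre and 84.0, 234 and 277 CPM in Nestin-creERT2 (edgeR adjusted p = 0.0374 without replicate 1). The chloride exporter Slc12a5, which makes GABA inhibitory in mature neurons, was at 672, 5.41 and 3.73 CPM in Synapsin-cre, 2.01, 3.43 and 9.65 in NG2-creERTM and 43.4, 28.3 and 54.9 in Nestin-creERT2. The importer Slc12a2, which works the other way, was at 82.4, 220 and 101 CPM in Synapsin-cre, 309, 131 and 314 in NG2-creERTM and 115, 55.7 and 104 in Nestin-creERT2. Slc12a5 was thus lower, and Slc12a2 higher, in every NG2-creERTM library than in any Nestin-creERT2 library, and neither passed (edgeR adjusted p = 0.523 and 0.364 with all 9 libraries).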

How the data were processed

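Total RNA of 9 tumour samples, extracted with a Qiagen RNeasy kit per the labels' protocols, was sequenced on Illumina libraries. The deposited tables hold raw read counts per gene, and the submitters' processing notes name STAR, HTSeq and mm10, without versions. Of the count columns, the one of the strand with most reads was used. 4 summary lines per table were left out. Symbols came from GENCODE vM21 (GRCm38), which matched 46005 of 46517 identifiers. CPM were scaled by TMM. The main test was edgeR 4.0.16 (R 4.3.3), a quasi-likelihood fit of all 9 libraries after filterByExpr (17947 genes), with Benjamini-Hochberg adjustment over all of them and a threshold of 0.05. That test gives no SE, so each SE printed is the absolute log2 fold change over the square root of its F statistic. Alternatives used limma 3.58.1, DESeq2 1.42.0, other scalings and filters, unstranded counts, fewer models and each library left out. Library depth limits the precision of values under 1 CPM. The receptor genes, the gene lists and the tests were chosen with earlier results of these data known. Genes described singly were the top gene per family by CPM per kb, the 3 largest fold changes each way per comparison, genes that passed any edgeR fit named above, and genes in which 1 model lay apart from both others. Some of the genes so chosen are not reported here; counts and medians cover all genes tested.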

Additional observations from a re-analysis of the deposited data

How the results depend on the processing

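No paired analysis was possible because the labels give no replicate numbers; the numbers 1 to 3 used here only name the samples of a model in the order listed, and nothing ties samples across models to a litter or batch. Over 19 alternatives, 28 single-gene fold changes gave 521 values, of which 499 kept their direction and 22 reversed. The cause was not tested. Some alternatives left out only libraries of the model outside a comparison, and there the direction could hardly change. Reversed values of Synapsin-cre over Nestin-creERT2, on the log2 scale, are given in the order 2 models only without Synapsin-cre replicate 1, limma voom, voom with sample weights, and all models without that replicate. They were -5.80, -2.81, -4.70 and -5.80 for Gabra5, -5.96, -3.80, -6.18 and -5.97 for Gria1, -5.67, -2.82, -5.14 and -5.67 for Grin2a, -4.97, -2.22, -4.01 and -4.98 for Grin2b, and -6.14, -3.11, -5.11 and -6.14 for Grin2c. With 1 library left out these 5 genes ranged, with Synapsin-cre replicate 1 omitted at the low end, up to 2.23, 1.13, 2.39, 2.82 and 2.24. In NG2-creERTM over Nestin-creERT2, Gria3 ranged from -0.054 to 0.82 and Grik3 from -0.26 to 1.29, both negative without NG2-creERTM replicate 1.

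Counts of genes called, 0 in each comparison in the main edgeR test of all 9 libraries, depended on the fit. For NG2-creERTM over Nestin-creERT2 they were 237 with 2 models only, 623 with DESeq2, 160 with voom weights, 12 with no filter and 0 to 124 with 1 library left out. For Synapsin-cre over Nestin-creERT2 they were 5 with 2 models only, 431 with these without Synapsin-cre replicate 1, 497 with DESeq2, 266 with voom weights, 12 with no filter, 1 with unstranded counts and 0 to 273 with 1 library left out. For Synapsin-cre over NG2-creERTM they were 1 with 2 models only without Synapsin-cre replicate 1, 446 with DESeq2 and 0 to 1 with 1 library left out. Receptor genes called in NG2-creERTM over Nestin-creERT2 were 5 of 42 with 2 models only (1.39% of all genes called). DESeq2 called 2 of 43 (3.47%) and voom weights 1 of 43 (0.892%). With 1 library left out they were 0 to 3, the 3 without Synapsin-cre replicate 1 (0.671%). In Synapsin-cre over Nestin-creERT2, 16 of 42 were called with 2 models only without Synapsin-cre replicate 1 (2.42%). DESeq2 called 2 of 43 (2.77%) and voom weights 9 of 43 (1.48%). With 1 library left out they were 0 to 12, the 12 without Synapsin-cre replicate 1 (1.48%). In Synapsin-cre over NG2-creERTM, DESeq2 called 4 of 43 (2.49%). The receptor genes' median in Synapsin-cre over Nestin-creERT2 was -2.84 with 2 models only without Synapsin-cre replicate 1, -1.69 with limma voom, -2.79 with voom weights and -2.67 to 0.44 with 1 library left out. With 1 library left out it was -1.88 to -1.55 in NG2-creERTM over Nestin-creERT2 and -0.69 to 1.50 in Synapsin-cre over NG2-creERTM, where voom weights gave -0.24. A gene with under 1 CPM in a model rests on few reads, and its fold change depends on the prior count.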
